A study of Sus scrofa with 3 samples.

Results

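The comparison set young pig liver against mature pig liver through their microRNAs (miRNAs), at postnatal day 30 (P30d, which the labels call the weaning stage) and postnatal year 7 (P7y, called the adult stage). Both groups were liver tissue of male pigs of the Jinhua breed, a Chinese local breed, with no treatment or genetic change named. The labels name 3 pigs per stage but give 1 library per stage and do not say whether RNA was pooled, so no value here has a replicate check. The series' other library, from embryonic day 90 (E90), is used only to place a few levels. The miRNAs were chosen by name and level: reads of known pig or other mammalian hairpins were added up under each mature name, and 300 of the 815 miRNAs with a read in either library had a mean of 10 or more counts per 1000000 miRNA reads (CPM). Over all 3 libraries 972 miRNAs had a read.

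A miRNA is cut from a hairpin transcript, and 1 of the 2 arms of the hairpin (5p or 3p) usually stays bound to an Argonaute protein and guides it to messenger RNAs, which are then repressed. Pairing to a target runs mainly through the seed, bases 2 to 8 of the mature miRNA, so miRNAs with the same seed form a family with overlapping targets. In the liver, miR-122 is the best-known hepatocyte miRNA, miR-192 and miR-194 are shared with the gut, and miRNAs such as miR-143, miR-145 and miR-199a are known from smooth muscle and other mesenchymal cells.

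The P30d table held 3775157 reads and that of P7y held 9935073 reads. Hairpins with a known name took 96.0% and 99.9% of them. A count of 0 allowed up to 0.828 CPM at P30d and 0.302 CPM at P7y. Intervals are 95% and cover counting error only, and reads amplified by PCR without molecular identifiers are not independent molecules. The share of miRNA reads with a mismatch was 13.9% at P30d and 21.7% at P7y. The P30d library had the fewest reads of the 3 and the lowest share with a mismatch (E90 18.6%). In addition, 4.03% of its reads lay in predicted hairpins with no known name, against 0.150% at P7y and 1.73% at E90. The part of these differences in the results below was not tested. The label of the tissue matched its miRNAs: miR-122-5p ranked 1 at P30d and 8 at P7y, while the 3 embryonic stem cell miRNAs with a read held 2 reads at P30d and 13 at P7y. Lists of other tissues were not empty. Striated muscle miRNAs summed to 383 CPM at P30d and 84.7 at P7y, neural ones to 189 and 42.9, and pancreas ones to 108 and 706.

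The mature sequences of the miRNAs most described below are shown here, first by seed family, because the families moved in different ways. Sequences are those of miRBase as the deposited tables give them, 5′ to 3′ with T for U and the seed in capitals. The first 3 share the seed of miR-148, the next 3 that of miR-99 and miR-100, and the next pair that of miR-26.
miR-148a-3p: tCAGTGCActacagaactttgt
miR-148b-3p: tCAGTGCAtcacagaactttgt
miR-152-3p: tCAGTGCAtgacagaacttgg
miR-99a-5p: aACCCGTAgatccgatcttgtg
miR-100-5p: aACCCGTAgatccgaacttgtg
miR-99b-5p: cACCCGTAgaaccgaccttgcg
miR-26a-5p: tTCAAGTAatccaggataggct
miR-26b-5p: tTCAAGTAattcaggataggtt
The miR-30 family is shown because its 5 members share a seed and moved apart, and the miR-130 family because all its members with that seed were far lower at P7y.
miR-30a-5p: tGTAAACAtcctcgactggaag
miR-30d-5p: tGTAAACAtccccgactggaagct
miR-30e-5p: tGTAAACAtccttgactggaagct
miR-30b-5p: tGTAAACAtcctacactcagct
miR-30c-5p: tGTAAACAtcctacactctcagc
miR-130a-3p: cAGTGCAAtgttaaaagggcat
miR-130b-3p: cAGTGCAAtgatgaaagggcat
miR-454-3p: tAGTGCAAtattgcttatagggt
The last group holds single miRNAs described below for their level in liver or their difference between the libraries.
miR-122-5p: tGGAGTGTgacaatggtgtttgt
miR-192-5p: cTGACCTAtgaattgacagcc
miR-101-3p: tACAGTACtgtgataactgaa
miR-143-3p: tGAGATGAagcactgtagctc
miR-145-5p: gTCCAGTTttcccaggaatccctt
miR-10a-5p: tACCCTGTagatccgaatttgt
miR-199a-5p: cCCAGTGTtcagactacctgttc
miR-375-3p: tTTTGTTCgttcggctcgcgtga

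More miRNAs held a smaller share of the mature profile than a larger one. A miRNA is called higher or lower at P7y here where its log2 ratio of CPM, P7y over P30d, was 1 or more in size and the interval excluded 0. By CPM, P7y was higher for 41 of 300 miRNAs (13.7%) and lower for 167 (55.7%), and the median log2 ratio was -1.34. Shares must sum to the same total, so the ratios were also taken with TMM, a scaling that trims the most extreme and most abundant miRNAs. It raised every log2 ratio by 0.99. With TMM, P7y was higher for 82 miRNAs (27.3%) and lower for 111 (37%), and the median log2 ratio was -0.35. Of the differing miRNAs, 19.7% were higher by CPM and 42.5% by TMM, so the split between higher and lower depends on the scaling. The 41 miRNAs higher (13.7%) and 111 lower (37%) under both scalings are the calls used below. Because the shift was the same for every miRNA, the 41 are those higher by CPM and the 111 those lower with TMM. A call under both scalings is therefore stricter for lower than for higher miRNAs, and agreement of the scalings is no separate check.

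**Figure D1:**
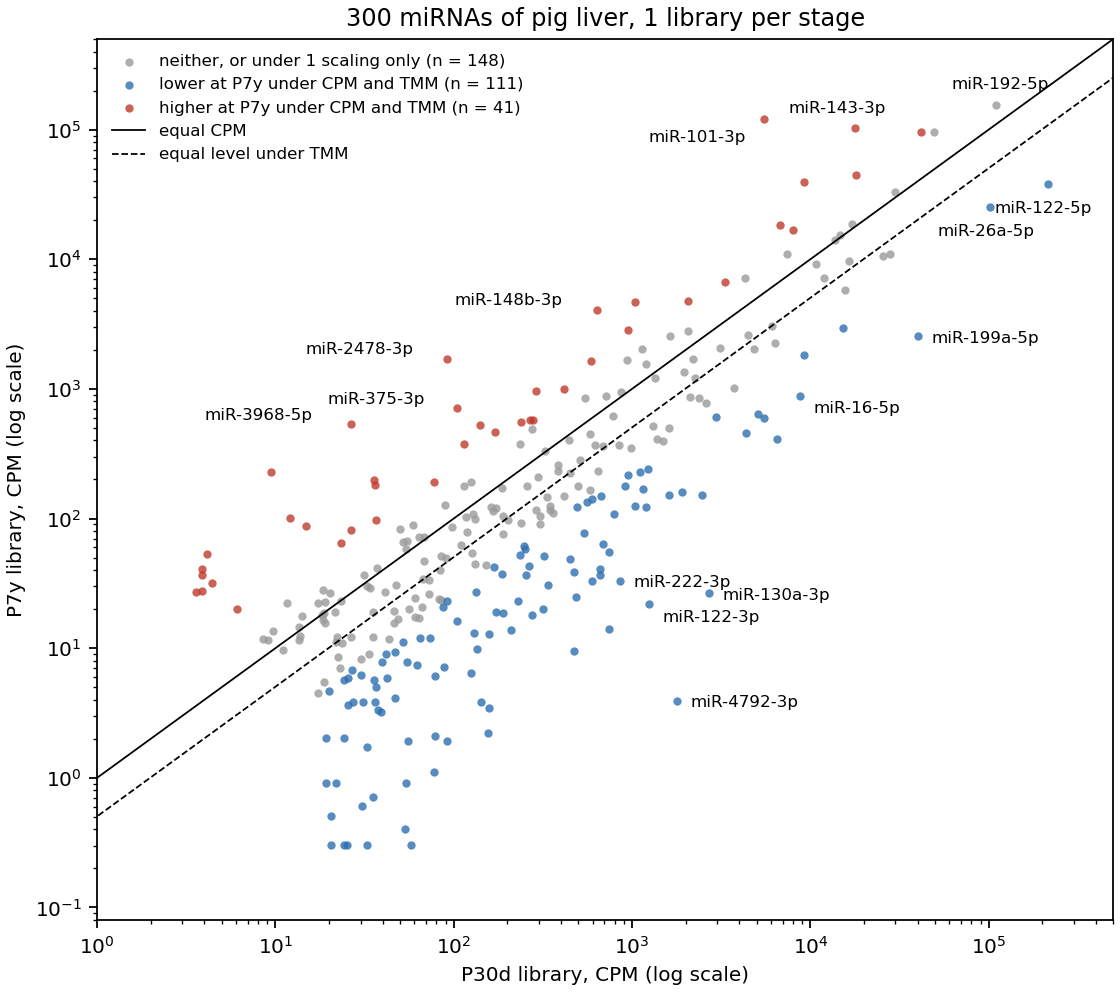
Level of each of 300 miRNAs at P30d (x) and P7y (y), in CPM on log axes, with miRNAs at 0 drawn at the limit a count of 0 allows. The solid line marks equal CPM and the dashed line equal level under TMM, and the 111 blue points lie mostly among low and middle levels, while miR-101-3p and miR-143-3p stand high above both lines.

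The shift differed with abundance. Among the 60 miRNAs whose mean reached 1000 CPM, 13 were higher and 25 lower by CPM (median log2 ratio -0.58), and 26 were higher and 14 lower by TMM. The 103 miRNAs from 100 to under 1000 CPM had a median of -1.47, and the 137 from 10 to under 100 CPM a median of -1.57. The first 10 miRNAs in rank took up 65.8% of all miRNA reads at P30d and 74.9% at P7y, and in each library 5 miRNAs held 50% or more. The libraries shared 7 of their 10 most abundant miRNAs.

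miR-192-5p, miR-101-3p, miR-143-3p, miR-148a-3p and miR-99a-5p led the mature liver, in that order. At P30d the order was miR-122-5p, miR-192-5p, miR-26a-5p, miR-99a-5p and miR-148a-3p. miR-192-5p held 109310 CPM at P30d and 154837 at P7y (log2 ratio 0.50, interval 0.50 to 0.51, and 1.49 by TMM). It passed the size of a call under TMM and under median-of-ratios factors (1.82), not by CPM. miR-199a-5p left the top 10 from rank 6 to rank 34, and miR-101-3p entered it from rank 30 to rank 2. miR-30a-5p had 29878 and 33261 CPM, a log2 ratio of 0.15 by CPM and 1.14 by TMM, and ranked 7 and 9.

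**Figure D2:**
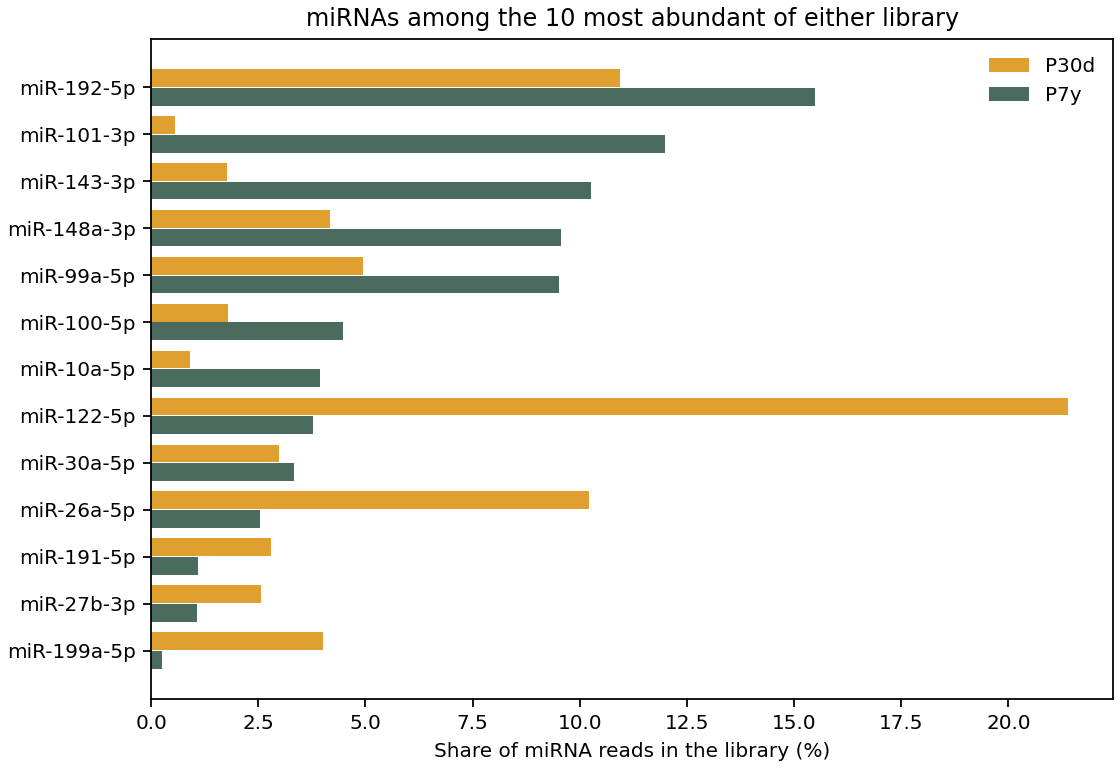
Share of miRNA reads in each library (percent, x) for every miRNA among the 10 most abundant at P30d or P7y. miR-122-5p, miR-26a-5p and miR-199a-5p have P30d bars far longer than their P7y bars, and miR-101-3p and miR-143-3p the reverse.

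miR-101-3p, known to target the Polycomb methyltransferase EZH2, had the largest gain in reads. It stood at 5493 CPM at P30d and 119967 at P7y, a log2 ratio of 4.45 (4.43 to 4.47), and 5.44 by TMM. The P30d library was the low one of the series, since E90 had 65392 CPM. The hairpin entries joined under the name miR-101-3p lay at 2 places in the genome. 1 of them is on the minus strand of chromosome 1 at 242988419 to 242988510 (Sscrofa10.2, as all positions here).

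miR-143-3p and miR-145-5p, which are cut from neighbouring hairpins and are known to promote the contractile state of smooth muscle, were both higher. miR-143-3p had 17730.4 CPM at P30d and 102624 at P7y (log2 ratio 2.53, 2.52 to 2.54). For miR-145-5p the levels were 1043 and 4688 CPM (2.17, 2.12 to 2.22). Both stood higher in the mature liver by CPM, and therefore by TMM. So did miR-10a-5p, which lies in a HOX gene cluster, with 9152 CPM at P30d and 39416 at P7y (2.11, 2.09 to 2.12).

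The miR-148 family was higher as a whole. miR-148a-3p, a hepatocyte miRNA known to act on DNA methyltransferase 1 and on lipid genes, had 41822 CPM at P30d and 95667 at P7y (1.19, 1.19 to 1.20). miR-152-3p had 2063 and 4751 CPM (1.20, 1.17 to 1.24), and miR-148b-3p 635 and 4076 CPM (2.68, 2.62 to 2.74). Their summed share rose from 4.45% to 10.4% of miRNA reads. The 3 hairpins lie on chromosomes 18, 12 and 5, so the family is not 1 transcript.

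The family of miR-99 and miR-100, known to act on the mTOR kinase, took 7.08% of miRNA reads at P30d and 14.7% at P7y. miR-100-5p stood at 18025 CPM at P30d and 44804 at P7y (1.31, 1.30 to 1.33). miR-99a-5p, with 49508 and 95209 CPM, had a log2 ratio of 0.94 and fell just outside the call, and miR-99b-5p, with 3313 and 6630 CPM, one of 1.001 and just inside it. By TMM all 3 were higher, with log2 ratios between 1.93 and 2.30. These values stood near the threshold, and miR-99b-5p lost its call when its reads were limited to known pig hairpins (0.95).

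Several miRNAs of lower level were also higher. miR-375-3p, best known from pancreatic islets and gut epithelium, had 104 CPM at P30d and 706 at P7y (2.76, 2.61 to 2.92), against 1289 at E90. miR-103-3p, known to act on insulin signalling through caveolin 1, had 952 and 2837 CPM (1.58, 1.52 to 1.63). miR-532-5p, of an X-linked cluster, had 140 and 527 CPM (1.92, 1.78 to 2.05). miR-103-3p and miR-107-3p share the seed GCAGCAT, and miR-107-3p, with 417 and 150.0 CPM, had the opposite sign (-1.48, and -0.49 by TMM).

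Among the miRNAs lower at P7y was the leading miRNA of the young liver. miR-122-5p, which in hepatocytes regulates cholesterol and fatty acid metabolism, had 213802 CPM at P30d and 37870 at P7y (log2 ratio -2.50, -2.50 to -2.49). Its share dropped from 21.4% to 3.79% of miRNA reads, and by TMM the log2 ratio was -1.51. The other arm of the hairpin, miR-122-3p, had 1247 and 21.8 CPM (-5.84, -6.04 to -5.64). The hairpin is on the minus strand of chromosome 1, at 179916327 to 179916422. In bulk liver, fewer cells of a type and less of a miRNA per cell cannot be told apart.

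miR-26a-5p and miR-26b-5p, which lie in introns of CTD phosphatase genes in other mammals and restrain the cell cycle, were lower together. miR-26a-5p had 102238 CPM at P30d and 25361 at P7y (-2.01, -2.02 to -2.004), and miR-26b-5p 9202 and 1833 CPM (-2.33, -2.35 to -2.30). Together with miR-26-5p, of the same seed, their share dropped from 11.1% to 2.72%. miR-26a-5p kept its call by TMM with a log2 ratio of -1.02, but not with median-of-ratios scaling (-0.70).

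miR-199a-5p, whose hairpins make the mesenchymal pair miR-199a-5p and miR-199a-3p, had 40212 CPM at P30d and 2539 at P7y (-3.99, -4.005 to -3.97). E90 had 3349 CPM, so the P30d library was the high one. The name miR-199a-3p, to which miR-199b-3p was joined, had 6113 and 3057 CPM, a log2 ratio of -1.0 by CPM and of -0.01 by TMM. In the miR-199a hairpins alone, the 5p arm had 145688 reads at P30d and 25183 at P7y, and the 3p arm 14776 and 20231.

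The miR-130 family, known for acting in endothelial and blood cells, showed the largest drop of any seed shared by 3 or more miRNAs. miR-130a-3p had 2698 CPM at P30d and 26.6 at P7y (-6.66, -6.85 to -6.49), while E90 had 80.4 CPM. miR-130b-3p had 156 and 2.22 CPM (-6.14), and miR-454-3p 32.6 and 1.71 CPM (-4.25). Their summed share dropped from 0.289% to 0.00305% of miRNA reads. Other miRNAs with large drops were miR-1307-5p (471 and 9.48 CPM, -5.63), miR-222-3p (855 and 33.1 CPM, -4.69), miR-335-5p (484 and 24.8 CPM, -4.29), miR-425-5p (660 and 36.6 CPM, -4.17) and miR-374a-5p (6539 and 410.1 CPM, -3.995).

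The let-7 family, which marks differentiated cells and opposes LIN28, had members of either sign. Among its 10 names with the seed GAGGTAG, 2 were higher and 5 lower by CPM (13.7% and 55.7% of all miRNAs), and 2 and 2 by TMM (27.3% and 37%). One of these names, let-7b-3p, mixes reads of both arms, led by a 3p read at P30d and by a 5p read at P7y. let-7g-5p had 6748 CPM at P30d and 18456 at P7y (1.45, 1.43 to 1.47), and let-7f-5p 8010.2 and 16666 CPM (1.06, 1.04 to 1.08). In contrast let-7a-5p had 16430 and 9697 CPM (-0.76), let-7e-5p 670.2 and 150.1 CPM (-2.16), and miR-98-5p 597 and 141 CPM (-2.09). The summed share of the seed was 4.06% at P30d and 4.95% at P7y, a smaller difference than in its members. let-7 miRNAs differ by few bases, and reads shared by several hairpins were divided among them.

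In the miR-30 family, abundant in liver and kidney, miR-30a-5p and miR-30d-5p kept their CPM, and were higher by TMM (1.14 and 1.03), while miR-30b-5p and miR-30c-5p were lower. miR-30d-5p had 13777 CPM at P30d and 14182 at P7y (0.04, 0.03 to 0.06). miR-30e-5p had 15574 and 5775 CPM (-1.43), which TMM left at -0.44. miR-30c-5p had 5515 and 600.3 CPM (-3.20, -3.24 to -3.16) and miR-30b-5p 4341 and 460.3 CPM (-3.24, -3.28 to -3.19). After the seed, miR-30b-5p and miR-30c-5p share a run of 10 bases, tcctacactc, and miR-30a-5p, miR-30d-5p and miR-30e-5p one of 9 bases, gactggaag.

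The family of miR-15, miR-16 and miR-195, whose members arrest the cell cycle, likewise had both. miR-16-5p had 8716 CPM at P30d and 888 at P7y (-3.29, -3.33 to -3.26), and miR-15b-5p 472 and 38.5 CPM (-3.62). miR-195-5p, with the same seed, had 269 and 579 CPM (1.10, 1.01 to 1.20). Of the 8 names with this seed, 5 were lower and 2 higher under both scalings (37% and 13.7% of all miRNAs). The 2 higher names, miR-195-5p and miR-195a-5p, have the same mature sequence and overlap on chromosome 12, so they are 1 miRNA. miR-424-3p, among the 5 lower, is a name given by position on a hairpin, since 93.0% of its reads lay on lines whose own identifier states the 5p arm. miR-424-5p, also among the 5 lower, has the same mature sequence, so the 5 lower names hold 1 miRNA under 2 names.

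The lists of miRNAs by tissue, cell type and genomic group are described by their counts beside those of all 300 miRNAs, of which 13.7% were higher and 37% lower under both scalings. Of 16 hepatocyte miRNAs kept, 2 were higher and 8 lower, and the median log2 ratio was -1.66 by CPM. The 16 are arms of hairpins, and the 8 lower ones include less abundant arms such as miR-122-3p and miR-192-3p. The count and the median give such an arm the same weight as a leading arm. The list held 38.8% of miRNA reads at P30d and 42.4% at P7y, with miR-122-5p down and miR-101-3p, miR-148a-3p and miR-192-5p up in share. Its lower members included miR-802-5p (685 and 63.5 CPM, -3.43) and miR-885-5p (209 and 13.8 CPM, -3.92), both liver-enriched. miR-194a-5p (14577 and 15262 CPM, 0.07) and the name miR-215-5p (325 and 331 CPM, 0.03) kept their CPM, and by TMM stood at 1.05 and 1.02. In both libraries the leading read of the name miR-215-5p carried the bases of miR-192-5p from base 2 on. A mismatch was held by 79.2% of the reads of this name at P30d and 80.4% at P7y. Its values therefore cannot be read as the level of miR-215 alone.

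Non-hepatocyte lists did not move as 1 block. Of 11 smooth muscle and mesenchymal miRNAs, 2 were higher (miR-143-3p and miR-145-5p) and 2 lower (miR-199a-5p and miR-21-3p), and their sum was 85073 CPM at P30d and 133307 at P7y. None of the list was at 0. Its part in the shift of miR-143-3p and miR-145-5p was not tested, as those 2 are members. miR-214-3p, made beside miR-199a, had 498 and 178 CPM (-1.48, -0.49 by TMM), and miR-21-5p, a miRNA of fibrosis and growth, had 17052 and 18625 CPM (0.13, 1.12 by TMM).

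Of 13 leukocyte miRNAs kept, none was higher under both scalings and 4 were lower, and their sum was 9267 CPM at P30d and 2573 at P7y. miR-142-5p, expressed across blood cells, had 2956 and 609 CPM (-2.28, -2.33 to -2.23). miR-146a-5p, a brake on NF-κB signalling, had 1150.4 and 169 CPM (-2.76, -2.85 to -2.68), and miR-181b-5p 494 and 123 CPM (-2.01). miR-223-3p, of neutrophils and other myeloid cells, did not follow them, with 50.2 and 83.1 CPM (0.73), nor did miR-150-5p, of mature lymphocytes, with 118 and 103 CPM (-0.20). Nor did the red cell miRNA miR-451-5p, with 1339 and 1223 CPM (-0.13), while miR-144-3p of the same cluster had 1195 and 123 CPM (-3.27).

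The endothelial miRNA miR-126-3p had 7426 CPM at P30d and 10952 at P7y (0.56, 1.55 by TMM), and of its list of 5 none was higher and 1 lower under both scalings. Of 13 kept miRNAs of the imprinted DLK1-DIO3 list, known for high levels before birth, none was higher and 7 lower (13.7% and 37% of all miRNAs). That list also holds miR-342 and miR-345, which are not usually counted in the imprinted cluster. miR-342-3p (788 and 108 CPM, -2.87, -1.88 by TMM) is 1 of the 7 lower. miR-345 had 153 reads of the 5p and 91 of the 3p arm at P30d, and 58 and 31 at P7y. The count of 7 therefore does not describe the imprinted cluster alone. miR-127-3p, the list's most abundant cluster member, had 385 and 233 CPM (-0.73, 0.26 by TMM). The 3 miRNAs of the HOX clusters had log2 ratios from 0.36 to 2.11 by CPM, and by TMM all 3 were higher. For the 7 miRNAs of the lipid and glucose list, 2 were higher (miR-103-3p and miR-375-3p) and 3 lower, among them miR-33a-5p (55.5 and 1.92 CPM, -4.86) and miR-33b-5p (35.3 and 0.706 CPM, -5.65), which lie in the SREBF genes and repress cholesterol export. In 7 miRNAs of the biliary and epithelial list, 1 was higher and 2 lower, and miR-200a-3p (187 and 37.6 CPM, -2.31) and miR-200b-3p (115 and 178 CPM, 0.63) took opposite signs by CPM.

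**Figure D3:**
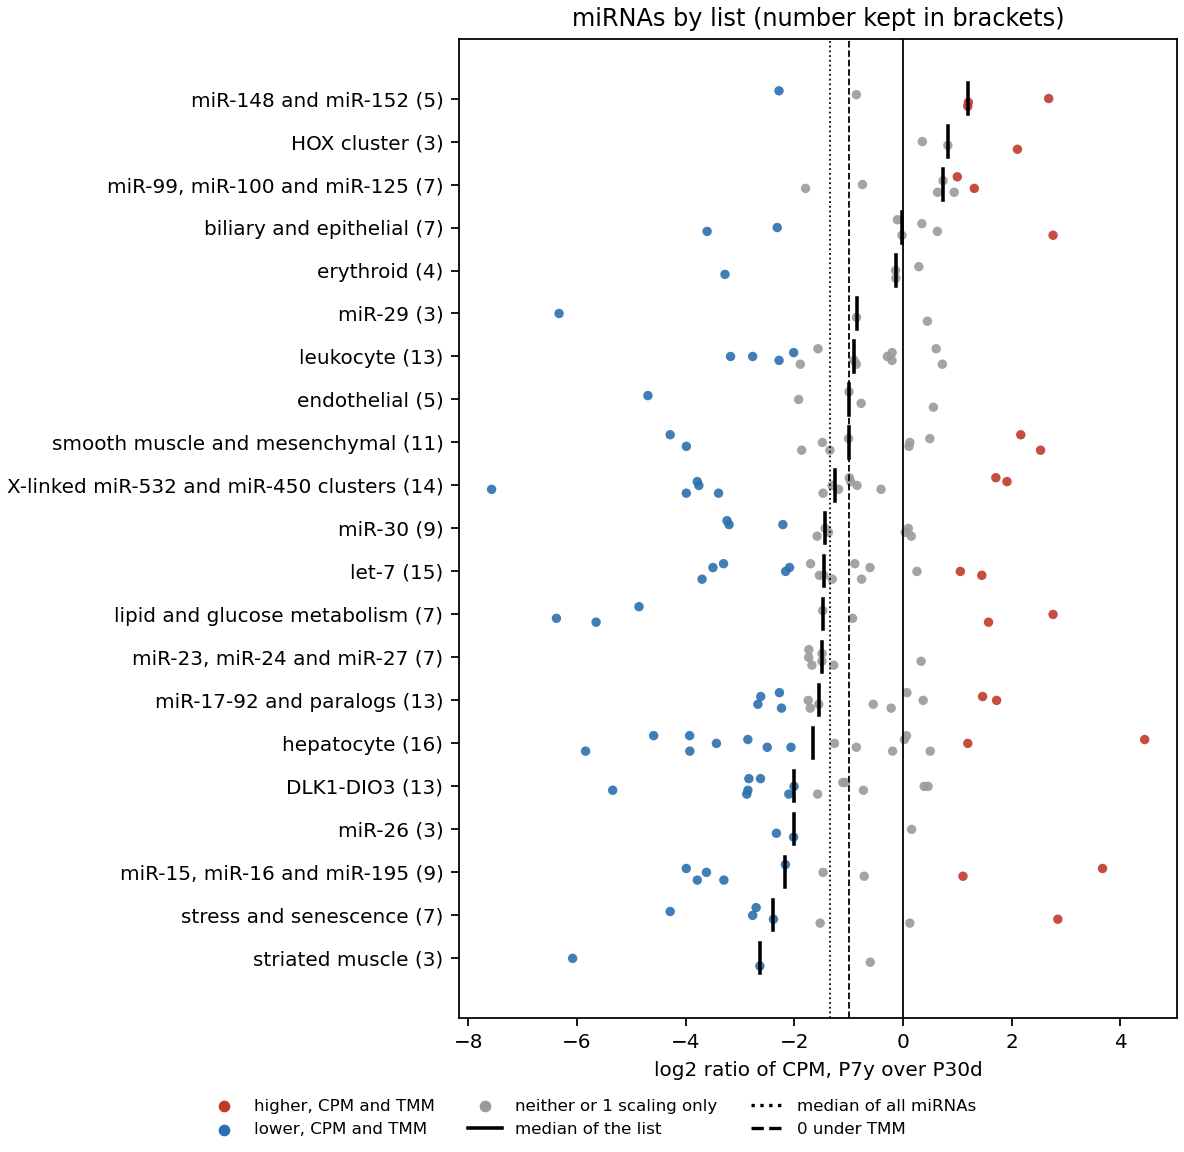
Log2 ratio of CPM, P7y over P30d (x), for the kept miRNAs of each list with 3 or more, with the median of each list as a short black bar. The dotted line marks the median of all 300 miRNAs (-1.34) and the dashed line the zero of TMM. The lists of miR-148 with miR-152 and of the HOX clusters have the highest medians. Some lists, such as the hepatocyte and let-7 lists, hold both red and blue points, and others hold 1 of these colours or neither.

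Hairpins that lie close together on 1 strand are usually cut from 1 transcript, so their members show how far miRNAs of 1 transcript differed. Of 241 kept miRNAs with a place on the genome, hairpins within 10 kb of each other formed 28 groups. From its lowest to its highest log2 ratio a group spanned 3.04 in the median, a span that takes in both arms of a hairpin. The width between the quartiles of all kept miRNAs was 2.83. Some groups are 1 place under 2 names, such as miR-378 with miR-378a on chromosome 2 at 157640333 to 157640440. By TMM, 8 groups held both higher and lower members (1 of them the names miR-29c and miR-29d, which are uncertain), 3 had only lower members and 1 only higher members. The last was the pair of miR-143 and miR-145 on the plus strand of chromosome 2 at 157344726 to 157346215, with log2 ratios from 0.11 to 2.53 by CPM. Among the 8, the groups of miR-192 with miR-194 and of miR-144 with miR-451 parted by the arms of the same hairpins. Another of the 8 was the stretch of chromosome 6 described below, with 2 higher and 10 lower by TMM.

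Other groups held members that parted. On the plus strand of chromosome 4, at 6713514 to 6717724, miR-30d-5p kept its CPM (0.04) and miR-30b-5p was lower (-3.24). On that of chromosome 2, at 6416775 to 6417077, miR-192-5p had a log2 ratio of 0.50 and miR-192-3p one of -3.93. In the miR-17-92 group on chromosome 11 (plus strand, 66610056 to 66610846), known for promoting growth, miR-20a-5p was higher (592 and 1636 CPM, 1.47), while miR-18a-5p (35.9 and 5.65 CPM, -2.67) and miR-17-3p (52.2 and 11.1 CPM, -2.23) were lower. On the minus strand of the X chromosome, at 45274858 to 45275711, miR-221-3p (1489 and 394 CPM, -1.92) and miR-222-3p (-4.69), which share the seed GCTACAT, were unequal. The groups that moved most evenly were miR-23a with miR-27a and miR-24 on chromosome 2 (-1.73 to -1.49) and miR-181a with miR-181b on chromosome 10 (-2.01 to -1.89).

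**Figure D4:**
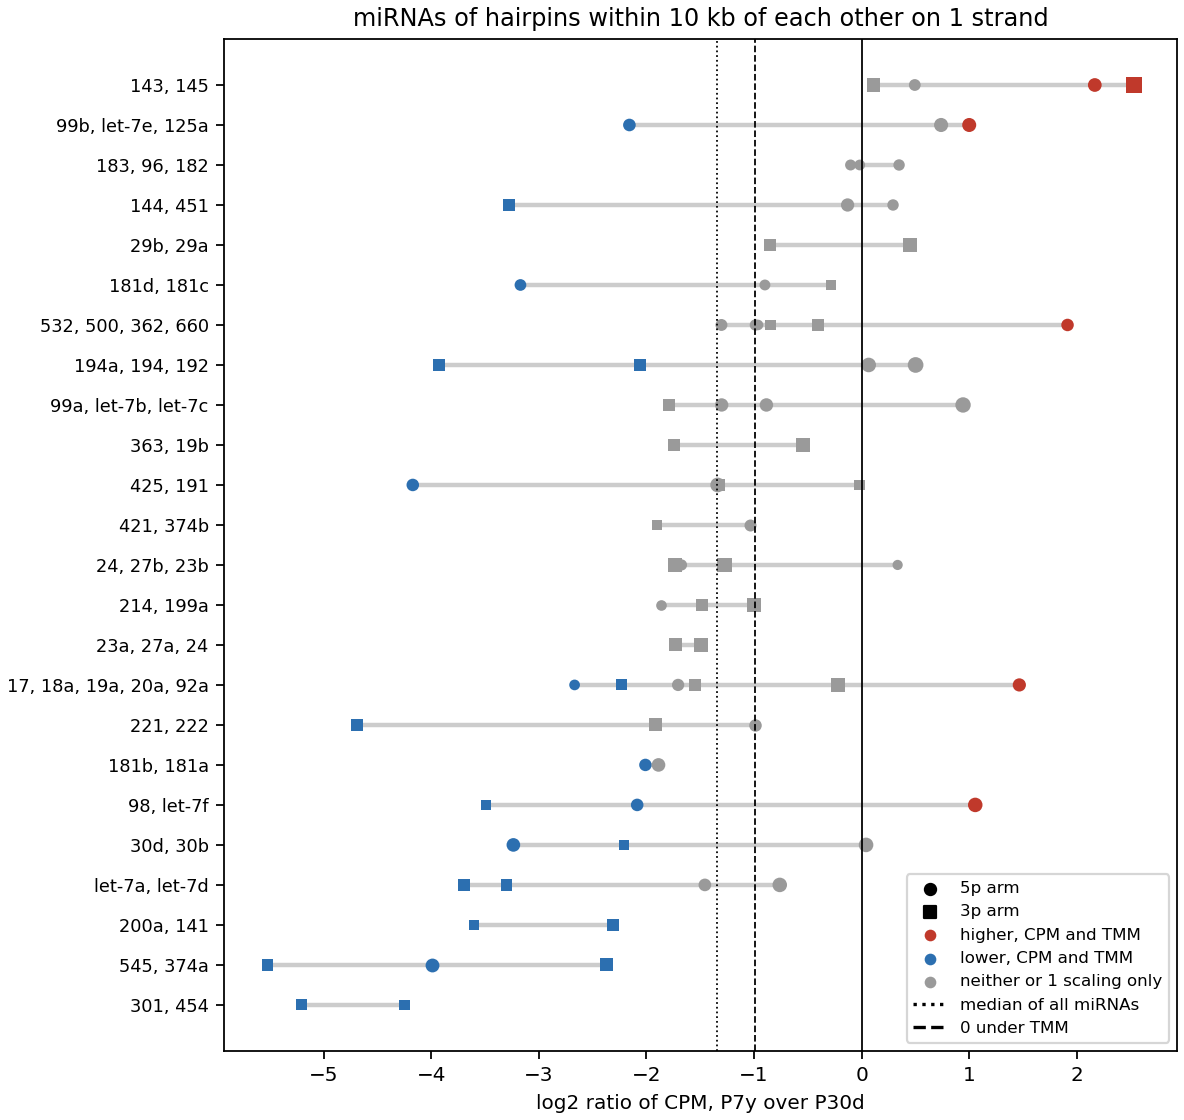
Log2 ratio of CPM, P7y over P30d (x), of the kept miRNAs of hairpin groups with up to 5 hairpins, named by their miR numbers (y), with circles for 5p and squares for 3p arms and larger points for more abundant miRNAs. Grey bars span each group, and the miR-143 and miR-145 group lies wholly to the right of the TMM zero while the group of miR-545 and miR-374a lies wholly to the left.

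The balance of the arms of a hairpin does not depend on how libraries are scaled, so it was compared directly. Of 156 hairpins with 50 or more reads in each library, 108 (69.2%) differed in the ratio of 5p to 3p reads by 2-fold or more with an interval off 0, 55 toward 5p and 53 toward 3p at P7y. Of these 108, the less abundant arm was lower relative to the other in 61 at P7y and higher in 47, and over all 156 the median log2 change was -0.75. For miR-101, the 5p arm had 79 reads beside 19901 of the 3p arm at P30d, and 9 beside 1190086 at P7y, a log2 odds ratio of -8.97 (-10.22 to -8.04). let-7g had 53 reads of the 3p arm at P30d and 2 at P7y beside 24447 and 183086 of the 5p arm (7.32, 5.71 to 10.72).

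The largest difference was in miR-542, whose 5p arm had 208 reads at P30d and none at P7y, at least 190-fold lower in CPM, while miR-542-3p had 115 and 375 CPM. miR-628 had 31 reads of the 5p and 22 of the 3p arm at P30d, and 76 and 0 at P7y. For miR-100 and miR-10b the 3p arm had 14 and 19 reads at P30d and 0 at P7y. miR-122 kept 99.4% and 99.9% of its reads on the 5p arm, and miR-192 99.8% and 99.99%, so their leading arm was the same.

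In 7 hairpins the more abundant arm itself differed between the libraries. miR-425, of a hairpin beside miR-191, had 2391 reads of the 5p and 1046 of the 3p arm at P30d, and 363 and 1144 at P7y (log2 odds ratio -2.85, -3.05 to -2.65). miR-335 had 1754 and 466 reads at P30d, and 246 and 1069 at P7y (-4.03, -4.29 to -3.78). miR-130b went the other way, with 67 reads of the 5p and 565 of the 3p arm at P30d, and 164 and 22 at P7y (5.94, 5.20 to 6.77). The others were miR-106b and miR-582 toward 3p, and miR-193a and miR-455 toward 5p. In miR-199a, the 5p arm held 90.8% of reads at P30d and 55.5% at P7y, and in miR-145 54.5% and 83.3%.

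**Figure D5:**
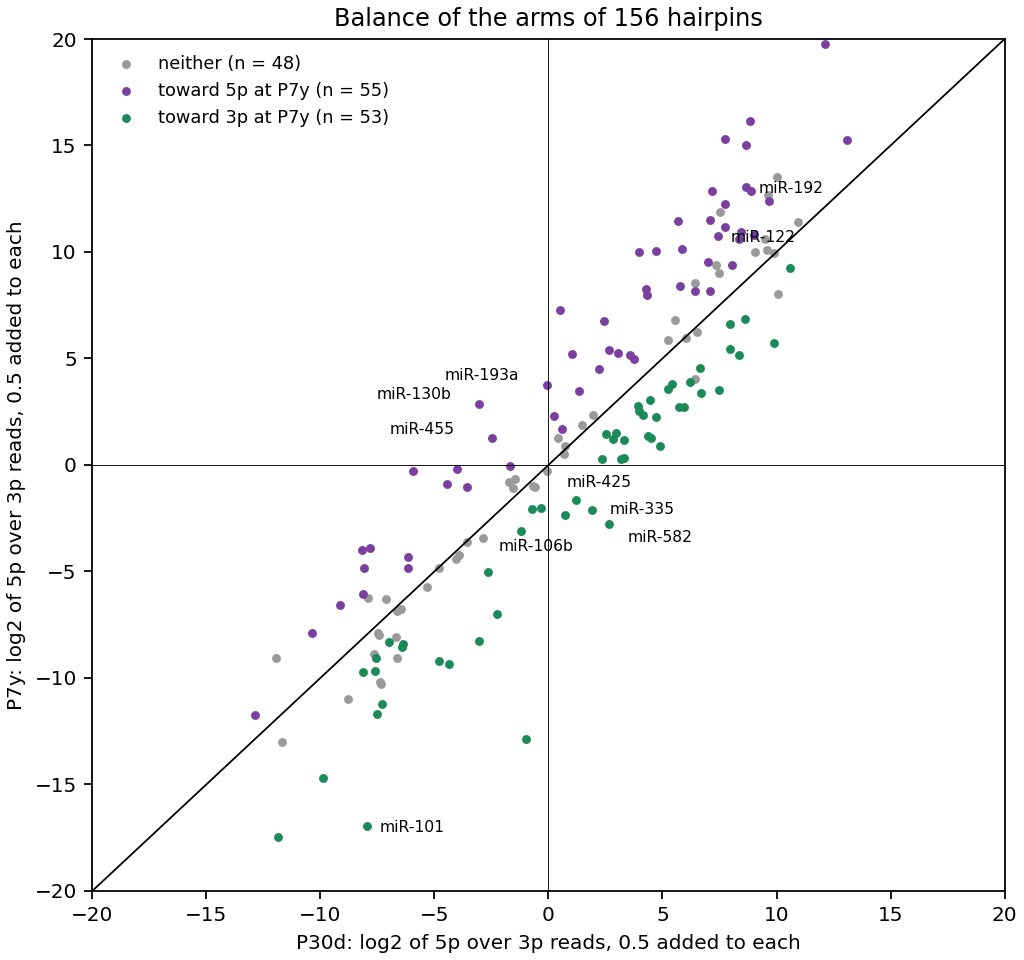
Balance of the arms, as the log2 ratio of 5p to 3p reads (0.5 added to both), at P30d (x) and P7y (y) for 156 hairpins. Points above the diagonal moved toward 5p (purple, 55) and those below toward 3p (green, 53), and the 7 hairpins labelled in the upper left and lower right fields changed their more abundant arm.

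The most frequent read of a miRNA also differed between the libraries in its ends. Of 294 miRNAs with a representative read in both, 173 had the identical read, 257 the same first 8 bases and 184 the same length, and 49 differed by 2 or more bases in length. The reads below show the pattern in abundant miRNAs, with bases present in 1 library's read alone in capitals.
miR-122-5p at P30d: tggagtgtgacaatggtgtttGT
miR-122-5p at P7y: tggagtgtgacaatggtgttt
miR-101-3p at P30d: Gtacagtactgtgataact
miR-101-3p at P7y: tacagtactgtgataactGAA
miR-143-3p at P30d: tgagatgaagcactgtagct
miR-143-3p at P7y: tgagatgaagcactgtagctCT
miR-194a-5p at P30d: tgtaacagcaactccatg
miR-194a-5p at P7y: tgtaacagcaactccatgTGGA
The leading read was shorter at P7y in 62 miRNAs, among them miR-122-5p, and longer in 48, among them miR-143-3p and miR-194a-5p. In miR-101-3p it also began 1 base later at P7y, so its bases 2 to 8 differ from those at P30d. That read was 16.2% of the miR-101-3p reads at P30d and 22.3% at P7y, so other ends made up the rest.

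A set of short reads ending in CCA, the bases at the 3′ end of every mature transfer RNA, is described apart. The leading read ended so in 16 kept names at P30d and in 15 of the same names at P7y. Under both scalings, 11 were higher and 3 lower of the 16, and 11 and 2 of the 15 (13.7% and 37% of all miRNAs). These are counts of names, not of separate sequences. miR-1260, miR-3968 and miR-4454 each enter the higher names as both a 5p and a 3p name with the same mature sequence. miR-5097 also has a 5p and a 3p name with the same mature sequence, 1 higher and 1 lower. Of the 15, 2 passed the level filter through P7y alone and 2 through P30d alone, and 14 had P7y reads of 16 to 18 bases. The sum of the 15 was 1055 CPM at P30d and 4841 at P7y. These are their most abundant reads at P7y, with the final CCA in capitals.
miR-2478-3p: tcccacttctgacaCCA
miR-3968-5p: tcccactcctgacaCCA
miR-1260-3p: atcccaccgctgccaCCA
miR-4454-5p: ccgagtcacggcaCCA
miR-2478-3p had 92.2 CPM at P30d and 1715 at P7y (4.22, 4.06 to 4.38), and its reads fit 22 places in the genome. miR-3968-5p had 26.5 and 533 CPM (4.33, 4.04 to 4.64), and miR-1260-3p 9.38 and 229 CPM (4.61, 4.12 to 5.14). Every read of miR-1260-3p held a mismatch in both libraries, as did 98.0% of miR-4454-5p reads at P30d and 99.8% at P7y. Whether the reads ending in CCA come from miRNA hairpins or from transfer RNA was not tested.

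A stretch of chromosome 6 (minus strand, 866649 to 870961) held 12 hairpin names and 17 kept miRNAs, of which 10 were lower and 1 higher at P7y under both scalings (37% and 13.7% of all miRNAs). Whether the reads under these 17 names come from miRNA hairpins or from another kind of RNA was not tested. miR-4792-3p had 1781 CPM at P30d and 3.93 at P7y (-8.82, -9.32 to -8.37), the lowest ratio among miRNAs whose mean reached 100 CPM. miR-2887-5p had 741 and 14.1 CPM (-5.71), miR-716b-3p 2455 and 151 CPM (-4.02), miR-5105-5p 593 and 33.0 CPM (-4.17) and miR-4332-3p 665 and 41.1 CPM (-4.01). The E90 levels of miR-4792-3p and miR-2887-5p were 23.6 and 50.5 CPM, so the P30d library was the high one. Around it, from 860 to 880 kb of the chromosome, lay 89.1% of the reads in predicted hairpins at P30d and 0.646% of those at P7y. The part of the predicted hairpins in the values of these 17 miRNAs was not tested. With the named miRNAs placed from 860 to 880 kb left out, every other named call but that of miR-99b-5p (0.99) stood.

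Features that the choice of miRNAs did not use gave modest differences. The 66 miRNAs whose mature sequence ends in A had a median log2 ratio of -0.65, against -1.68 for the 109 that end in T. The 155 miRNAs of 5p arms had a median of -1.18 and the 145 of 3p arms one of -1.57. The 190 miRNAs of pig hairpins had a median of -1.36, and the 110 known from other mammals alone one of -1.24.

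At the level filter, miR-379-5p (8.56 and 11.8 CPM) and miR-186-3p (19.3 and 0.907 CPM) lay just inside, and miR-32-3p (19.3 and 0.605 CPM) and miR-193b-5p (17.4 and 2.12 CPM) just outside. Some names cannot be read as levels of 1 miRNA: miR-29c-3p had 24.3 CPM at P30d and 0 at P7y, and miR-29d-3p 0 and 51.7 CPM, although the 2 share the seed AGCACCA and a place on chromosome 9. Neither is counted here as a change of miR-29, whose most abundant member, miR-29a-3p, had 2059 and 2815 CPM (0.45).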

How the data were processed

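The deposited table of each library lists the arms of miRNA hairpins. Per the file headers, the authors aligned the reads with miRBase hairpins of mammals and with the pig genome, and grouped hairpins by how they mapped. The read numbers the authors deposited per arm are expected counts, because multiply mapping reads were split between hairpins. The deposited copy numbers of representative reads are counts. Sscrofa10.2 is the build in the submitters' processing notes. The aligner, the trimming and the miRBase release were not given in the sources consulted. Per the labels' protocols, total RNA had an integrity number above 6.0, about 15 µg of small-RNA-enriched RNA was used, and fragments of 14 to 40 nt were sequenced.

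Expected counts of the named groups were summed by mature name and rounded. Names were joined where the same representative read (at least 18 nt) made up more than 50% of the reads of each of them in at least 1 of the 2 libraries, which removed 21 names. CPM are per 1000000 named reads, and the 300 miRNAs whose mean reached 10 CPM were kept. The log2 ratio has an exact conditional binomial 95% interval, with 0 reads set to 3 per library. A call needs a log2 ratio of 1 or more in size and an interval off 0. With 1 library per stage there is no test across samples and no p-value. TMM factors came from edgeR 4.0.16 and median-of-ratios factors from DESeq2 1.42.0, used for scaling only (R 4.3.3). Arm balance is the log2 odds ratio of 5p to 3p reads (0.5 added to both) with an exact conditional interval, for hairpins with 50 or more reads, leaving out lines whose arm comes from a predicted hairpin. Scripts ran in Python 3.11.15 with SciPy 1.17.1, NumPy 2.4.6, pandas 2.3.3 and matplotlib 3.10.9, and were tested on simulated data.

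The text names the top 10 of each library, the 12 miRNAs with the most extreme log2 ratio each way (mean of 100 CPM or more, called under CPM and TMM), the 4 or fewer most abundant members of each list, the members of the 3 largest seed families, the 6 hairpins with the largest arm difference, and the 2 miRNAs on each side of the filter. Other miRNAs were named after their values were seen, to describe lists, seeds, hairpin groups and read ends. The comparison, the members and the lists were chosen with earlier results of these data known. Alternatives were other scalings, other filters, pig hairpins only, reads without a mismatch, representative reads only, names as they stand, and leaving out the chromosome 6 stretch, the last added after seeing the data, as was the use of all lines for arms. No genome or annotation of the build was used, so exons, introns and host genes in pig were not analysed here.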

Additional observations from a re-analysis of the deposited data

Results flagged for a closer look

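Reads in predicted hairpins, which carry no known miRNA name and enter no comparison above, were 4.03% of all reads at P30d and 0.150% at P7y, each above what a count of 0 allows. At E90 they were 1.73%. Their part in the results was not tested.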

How the results depend on the processing

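No paired analysis was possible because each stage has 1 library, and no library could be left out for the same reason. The number of miRNAs higher at P7y was 41 by CPM, 82 with TMM, 100 with median-of-ratios factors, 67 with no filter (of 815) and 23 for known pig hairpins only (of 186). The number lower was 167 by CPM, 111 with TMM, 88 with median-of-ratios factors, 338 with no filter, 85 at 100 CPM or more (of 163) and 106 for pig hairpins only. The median log2 ratio of -1.34 became -0.35 and -0.027 under the 2 scalings. With median-of-ratios factors, 17 of 100 named miRNAs had the other sign, 13 of them not called by CPM and 4 called: miR-27b-3p to 0.040, miR-450b-5p to 0.13, miR-199a-3p to 0.31 and miR-409-5p to 0.26. The scalings differ by 1 constant for every miRNA, and which of them is closer to the amount per cell was not tested. Of 71 named miRNAs called by CPM, 52 kept direction and call under every alternative that gave a value and 19 lost the call under 1 or more. The count of hairpins with another arm balance, 108 of 156, was 86 of 126 at 200 or more reads, 103 of 142 for reads without a mismatch and 119 of 174 with all lines. Depth limits the P30d library, where a count of 0 allows 0.828 CPM. Spread between pigs could not be measured.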
